A study of Homo sapiens with 3 samples.

Results

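The replication-dependent histone genes were followed in 22RV1 prostate cancer cells after knockdown of SPINK1. The array named 69 such genes among its 43317 gene names, each with a name that starts with HIST1H, HIST2H, HIST3H or HIST4H, and it covered them with 85 of its 58201 probes. Among these names, HIST1H2APS1 and HIST2H2BA stand for transcribed pseudogenes in RefSeq. Of the 69 genes, 59 were measured, meaning that at least 1 of the gene's probes cleared the scanner's background flag in the same channel, Cy5 or Cy3, on every array. The genes were chosen by measured values of this same comparison, after the H4 gene HIST1H4C had been seen to read highest after loess, so their own values are given as a description without a test.

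22RV1 is a SPINK1-positive human prostate cancer cell line. Its cells were transduced with lentiviral particles carrying 1 of 3 hairpins against SPINK1 (shSPINK1-1, shSPINK1-2 and shSPINK1-3) and kept in puromycin, and each knockdown was set against 22RV1-shSCRM cells, labelled shScrambled, on 1 two-color array. The knockdown RNA carried Cy5 and the control RNA Cy3 on all 3 arrays, with no swap of the dyes, so a positive log2 ratio means a higher signal in the knockdown, and a dye effect and a knockdown effect cannot be told apart. The 3 arrays differ by hairpin and share 1 kind of control, so the spread given as SD is that between hairpins (n = 3) and leaves out the spread between control cultures.

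Replication-dependent histone genes supply the core histones H2A, H2B, H3 and H4 and the linker histone H1 that package newly made DNA, and in human cells most of them lie in a large cluster on chromosome 6 and a smaller one on chromosome 1. Their transcription rises in S phase under the coactivator NPAT, and their mRNAs end in a conserved stem-loop, bound by SLBP, in place of a poly(A) tail. According to the labels, tails were added to the RNA by poly(A) polymerase before priming with oligo(dT), a step that lets mRNAs without a tail of their own be labelled.

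The H4 genes carried the highest ratios, and the probes that gave them lie over the end of the coding sequence, so these stretches are shown first. In the array's hg19 annotation each line below is the last part of an H4 coding sequence on chromosome 6, 5′ to 3′ on the gene's strand and ending in the stop codon, as far as the probe covers it. Capitals mark bases identical to the HIST1H4C probe at the same distance from the stop codon.
HIST1H4C: TGTATGGCTTCGGCGGCTGA
HIST1H4L: TGTATGGCTTtGGCGGCTGA
HIST1H4D: tTATGGCTTCGGCGGCTGA
HIST1H4E: CTTCGGCGGCTaA
HIST1H4B: TGTAcGGCTTCGGCGGtTaA
HIST1H4A: TtTATGGCTTtGGCGGtTaA
HIST1H4J: TcTAcGGtTTCGGtGGtTGA
HIST1H4K: TcTAcGGtTTCGGtGGtTGA
On the plus strand lie the stretches of HIST1H4C at chr6:26104468-26104487, HIST1H4E at chr6:26205172-26205184, HIST1H4A at chr6:26022199-26022218 and HIST1H4J at chr6:27792195-27792214. On the minus strand lie those of HIST1H4L at chr6:27840977-27840996, HIST1H4D at chr6:26188993-26189011, HIST1H4B at chr6:26027169-26027188 and HIST1H4K at chr6:27798994-27799013.

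The HIST1H4C probe matched itself over 20 of 20 bases, HIST1H4L matched it over 19 of 20, HIST1H4D over 18 of 19, HIST1H4E over 12 of 13 and HIST1H4B over 17 of 20. These 5 probes gave mean log2 ratios from 0.41 to 0.98. Against them, the longer of the HIST1H4A stretches matched over 16 of 20 bases and the HIST1H4J and HIST1H4K stretches over 15 of 20. The 4 coding-end probes of these genes gave means from -0.10 to 0.06. Those of HIST1H4A were dim, at a mean log2 brightness of 6.63 and 6.14, beside 7.73 for HIST1H4K and 8.06 for HIST1H4J. The 5 probes with high ratios lay at 7.91 to 14.6. With Feature Extraction's log ratios both HIST1H4A probes were at 0.15, HIST1H4K at 0.02 and HIST1H4J at -0.05, and the 5 at 0.45 to 0.70. A further HIST1H4K probe, away from the coding end, gave a mean of 0.18. These matches cover at most 20 bases of probes 60 bases long. The longest exact run shared with the HIST1H4C probe was 18 bases for the coding-end probe of HIST1H4D. It was 11 for HIST1H4E and HIST1H4B, 10 for HIST1H4L, and 5 to 8 for the coding-end probes of HIST1H4A, HIST1H4J and HIST1H4K. Another HIST1H4D probe, which did not reach the stop codon, shared a run of 10 and gave a mean of 0.18. The number of matches and the ratios were set side by side after the ratios were known, and the part of probe sequence in them was not tested. A stretch with GGNGGN followed by TGA or TAA, the pattern by which the coding end was found on the probe's own strand, was present in 9 of 20 H4 probes (45%) and in 0.586% of all probes on the array.

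HIST1H4C, an H4 gene of the chromosome 6 cluster now named H4C3, gave log2 ratios of 0.81, 1.01 and 1.11 with hairpins 1, 2 and 3 (mean 0.98 ± 0.15, SD, n = 3). The uncorrected mean signals of its probe were 33200, 28000 and 30800 in Cy5 and 22600, 19000 and 20800 in Cy3. Cy5 was therefore the higher channel on every array before any dye correction. A further HIST1H4C probe at chr6:26104130-26104189, 338 bases upstream on the genome, gave 0.46, 0.53 and 0.69 (mean 0.56 ± 0.12, SD, n = 3). Both probes lay above 0 on all 3 arrays, but their order depended on the scale. After loess the downstream probe was the higher on every array, and with Feature Extraction's log ratios the upstream probe was, at a mean of 0.82 against 0.68.

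HIST1H4L, now H4C13, gave 0.48, 0.65 and 0.79 (mean 0.64 ± 0.16, SD, n = 3) at its coding-end probe, with signals of 7990, 7140 and 7330 in Cy5 and 7120, 6350 and 6190 in Cy3. Its other probe, 105 bases upstream in the gene at chr6:27841054-27841113, gave -0.01, 0.03 and 0.03 (mean 0.01 ± 0.02, SD, n = 3). That upstream probe was well above background on 3 arrays in Cy5 but on 0 arrays in Cy3, at signals of 21.0 to 28.0 in Cy5 and 35.4 to 41.5 in Cy3, so its ratio near 0 is that of a dim spot. The value of HIST1H4L thus came from the coding-end probe alone.

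HIST1H4E, HIST1H4B and HIST1H4D followed. HIST1H4E gave 0.38, 0.56 and 0.55 (mean 0.50 ± 0.10, SD, n = 3), and its signals before correction were 211, 205 and 211 in Cy5 and 217, 195 and 206 in Cy3. With Feature Extraction's log ratios HIST1H4E was at 0.70, above HIST1H4C at 0.68. HIST1H4B gave 0.32, 0.53 and 0.57 (mean 0.47 ± 0.13, SD, n = 3), from signals of 3260, 2930 and 3010 in Cy5 and 3310, 2860 and 2960 in Cy3. HIST1H4D gave 0.35, 0.43 and 0.46 (mean 0.41 ± 0.06, SD, n = 3), from signals of 424, 308 and 349 in Cy5 and 446, 327 and 372 in Cy3, and a probe 49 bases upstream of that one gave a mean of 0.18. Before correction, Cy3 was thus the higher channel on every array for HIST1H4D, and neither channel was the higher throughout for HIST1H4E and HIST1H4B. At their coding-end probes all 5 of these genes were above 0 with every hairpin, and hairpin 1 was the lowest in each.

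The remaining H4 genes lay closer to 0. At the brightest probe of each, HIST1H4K, HIST2H4B, HIST1H4I, HIST1H4F, HIST1H4H and HIST1H4A had means from 0.06 to 0.18 and were above 0 on all 3 arrays. The dimmer kept probes of HIST1H4K, HIST1H4H and HIST1H4A gave means of -0.01, -0.01 and 0.05, and none of these probes was above 0 with every hairpin. HIST1H4J, the lowest H4 gene, gave -0.18, -0.02 and -0.08 (mean -0.10 ± 0.08, SD, n = 3) and was below 0 on all 3 arrays. HIST1H4J and HIST1H4K share an exact run of 37 bases between their coding-end probes, which gave means of -0.10 and -0.01, so these genes are uncertain where near-identical copies bind the same labelled RNA. Over the 12 measured H4 genes the median was 0.17, and over the 11 without HIST1H4C it was 0.16.

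**Figure D1:**
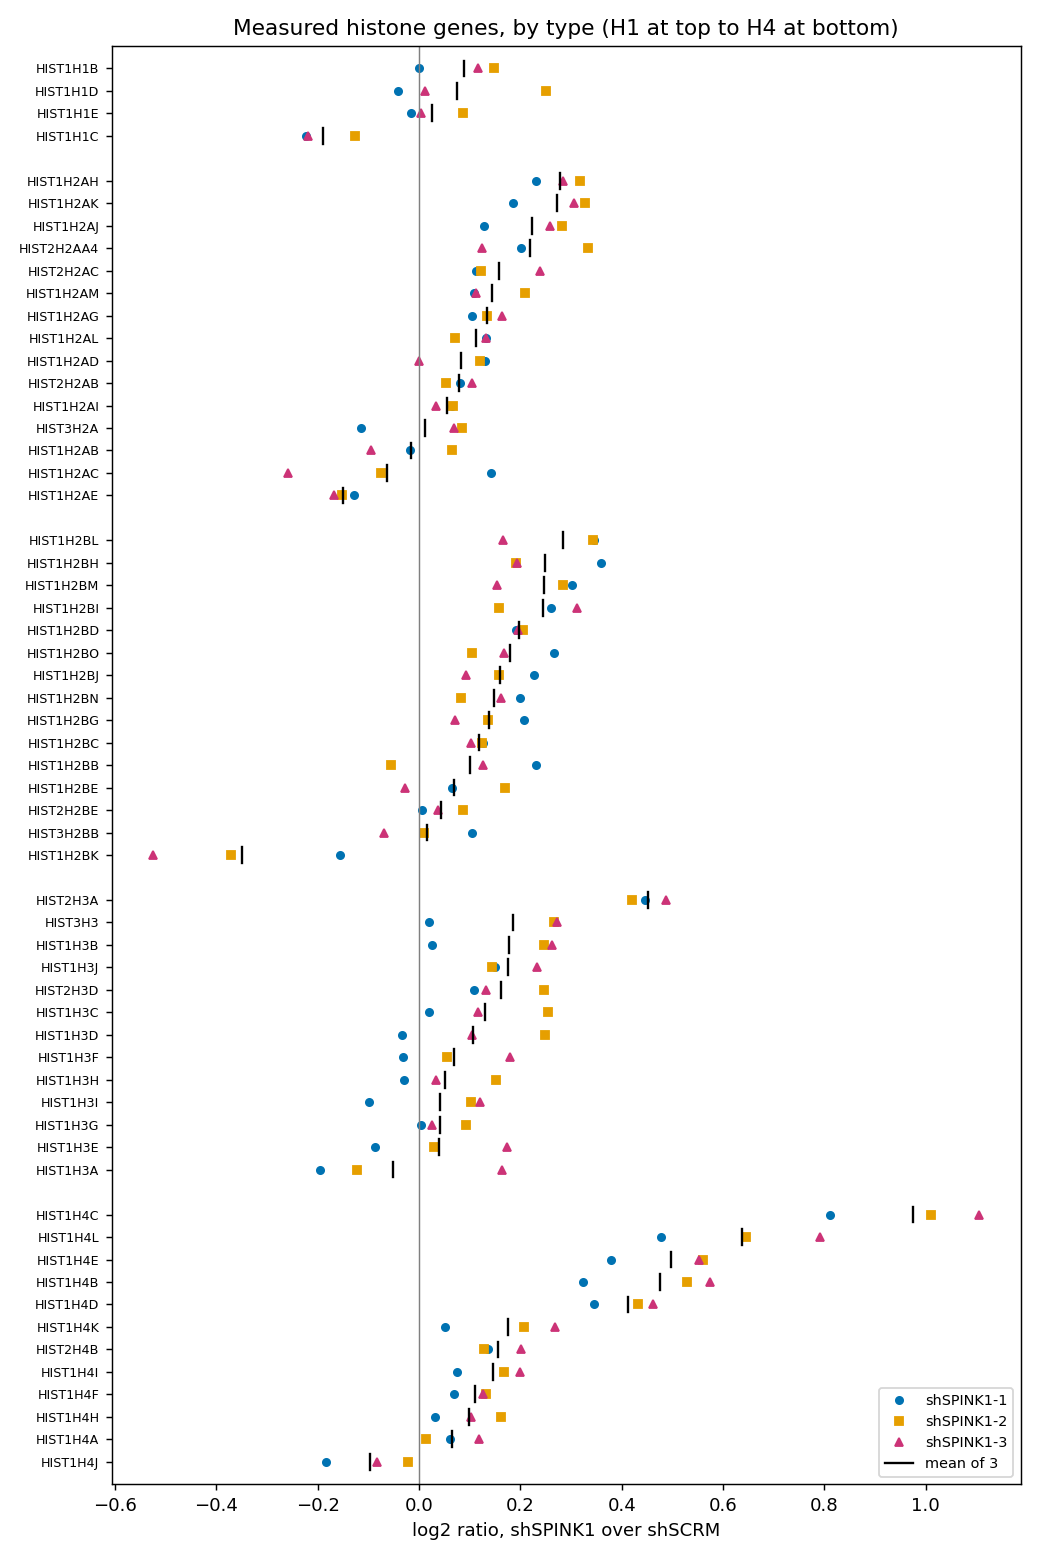
Log2 ratio of Cy5 over Cy3 (x axis) with each hairpin for the 59 measured histone genes, grouped by type and ordered by mean within a type; black bars are means. Most genes lie between 0 and 0.3, HIST1H4C and HIST1H4L stand at the high end, and HIST1H2BK at -0.35 stands at the low end, all on the loess scale (under median centring the median of the 59 genes is -0.10 and that of all genes -0.23).

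H2B, which pairs with H2A in the outer dimers of the nucleosome, had a median of 0.15 over 15 measured genes. HIST1H2BL was the highest, with 0.34, 0.34 and 0.16 (mean 0.28 ± 0.10, SD, n = 3), and was also the H2B gene with the brightest measured probe. HIST1H2BD gave 0.19, 0.20 and 0.20, an SD of 0.0068. At the low end, HIST1H2BK gave -0.16, -0.37 and -0.52 (mean -0.35 ± 0.19, SD, n = 3) at a probe at chr6:27106191-27106250, and 0.22, 0.30 and 0.23 (mean 0.25 ± 0.04, SD, n = 3) at a probe at chr6:27114437-27114496. The gene is on the minus strand, so the probe with the negative ratio lies 8246 bases downstream of the other. The signals of the downstream probe were 442, 329 and 319 in Cy5 and 668, 637 and 707 in Cy3, and Cy3 was the higher channel on every array. The opposite signs of the 2 probes held on every array.

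HIST1H2BK was 1 of 10 histone genes with 2 kept probes, and 1 of 3 in which the means of the probes differed by over 0.3, beside HIST1H4C (0.41) and HIST1H4L (0.62) on the loess scale. With Feature Extraction's log ratios the probes of HIST1H4C were at 0.82 upstream and 0.68 downstream, in the opposite order and less than 0.3 apart. HIST1H2AC was similar in layout, with a mean of 0.13 at a probe near the start of the gene and of -0.06 at a probe 14419 bases downstream of the first of its probes. Both genes belong to a group of 8 histone genes known to give polyadenylated transcripts as well. In this group the median was 0.07, from -0.35 for HIST1H2BK to 0.20 for HIST1H2BD, and 5 of 8 genes were above 0 on all 3 arrays.

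**Figure D2:**
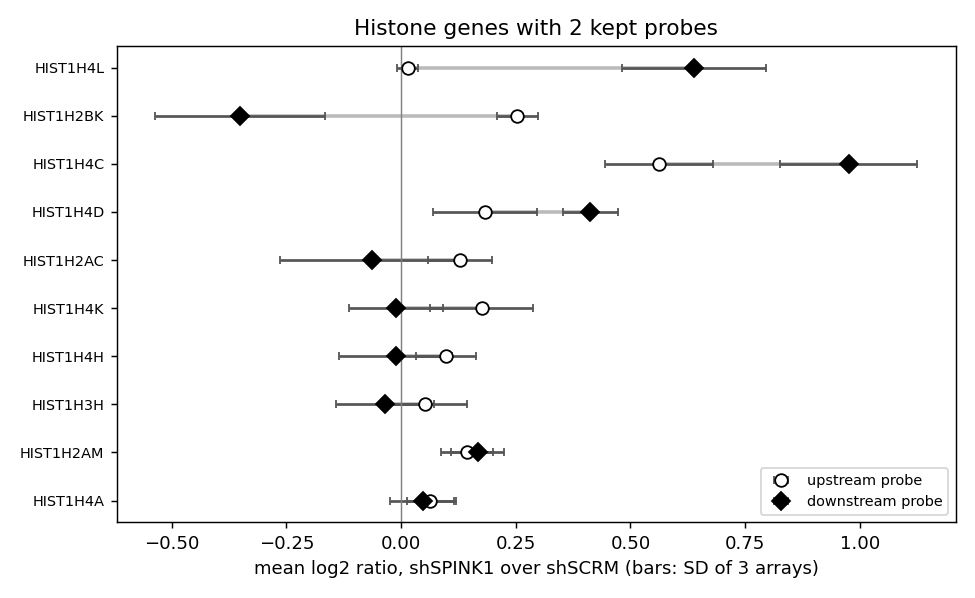
Mean log2 ratio of Cy5 over Cy3 (x axis) for the 10 histone genes with 2 kept probes, open circles for the upstream and filled diamonds for the downstream probe of each gene, with bars for the SD over 3 arrays. On this loess scale the probes of HIST1H4L, HIST1H2BK and HIST1H4C lie over 0.3 apart (with Feature Extraction's log ratios those of HIST1H4C turn to 0.82 upstream and 0.68 downstream), and those of HIST1H2BK, at 0.25 and -0.35, lie on opposite sides of 0.

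H2A genes had a median of 0.11 over 15 measured genes. HIST1H2AH was the highest, with 0.23, 0.32 and 0.28 (mean 0.28 ± 0.04, SD, n = 3), and HIST1H2AE the lowest, with -0.13, -0.15 and -0.17 (mean -0.15 ± 0.02, SD, n = 3). HIST1H2AM, whose probe was the brightest of the type, gave 0.11, 0.21 and 0.11 (mean 0.14 ± 0.06, SD, n = 3). The 3 hairpins gave like values in HIST1H2AE and spread widely in HIST1H2AC, at 0.14, -0.08 and -0.26.

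H3, which with H4 forms the central tetramer of the nucleosome, had a median of 0.11 over 13 measured genes. HIST2H3A gave 0.45, 0.42 and 0.49 (mean 0.45 ± 0.03, SD, n = 3), above every other H3 gene on each array. HIST3H3, a gene known for its expression in testis, had the brightest H3 probe and gave 0.02, 0.27 and 0.27 (mean 0.19 ± 0.14, SD, n = 3). The lowest was HIST1H3A, with -0.19, -0.12 and 0.16 (mean -0.05 ± 0.19, SD, n = 3), on both sides of 0. HIST2H3A, like HIST2H4B and HIST2H2AA4, has a near-identical copy in the chromosome 1 cluster, which its probe may not separate.

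H1 linker histones, which bind the DNA between nucleosomes, had a median of 0.05 over 4 measured genes. HIST1H1B was the highest, with 0.00046, 0.15 and 0.12 (mean 0.09 ± 0.08, SD, n = 3). HIST1H1C, the lowest and the H1 gene with the brightest probe, gave -0.22, -0.13 and -0.22 (mean -0.19 ± 0.05, SD, n = 3). The other 3 measured H1 genes had positive means of 0.09 or less.

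The stem-loop that ends these mRNAs was present in some probes, and its letters are shown because they mark probes that reach the 3′ end of the processed message. Capitals mark the paired stem and lower case the loop.
HIST2H3A: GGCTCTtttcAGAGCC
HIST1H2AI: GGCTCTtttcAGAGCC
HIST1H4K: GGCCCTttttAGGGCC
In hg19 these probes lie at chr1:149824626-149824685 (plus strand), chr6:27776386-27776445 (plus strand) and chr6:27798954-27799013 (minus strand). The core GGCNCTTTT, searched on the probe's own strand, was in 9 of 85 histone probes (10.6%) and in 66 of all 58201 probes (0.113%). Of these probes that of HIST1H2BF was not kept. Among the kept ones HIST2H3A gave the highest mean, 0.45, and the others gave -0.04 to 0.13. The HIST1H2BE and HIST1H2AG probes were dim, at a mean log2 brightness of 6.01 and 6.41 beside 8.49 for HIST2H3A. With Feature Extraction's log ratios HIST2H3A was at 0.55, HIST1H2BE at 0.48, HIST1H2AG at 0.39 and the lowest, HIST1H3H, at -0.17. Probes that held the stem-loop thus had no common ratio on either scale.

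Promoters are shown for 4 H4 genes, because members of this type read high and low: the 100 bases before the transcription start in GRCh38.p14, from RefSeq, on the gene's strand. No promoter of HIST1H4C was available. Capitals mark the H4 element GGTCCG, the TATA box as TATAAA, and the box CCAAT.
HIST1H4L: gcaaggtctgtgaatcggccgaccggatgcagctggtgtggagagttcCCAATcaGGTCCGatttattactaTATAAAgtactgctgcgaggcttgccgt
HIST1H4B: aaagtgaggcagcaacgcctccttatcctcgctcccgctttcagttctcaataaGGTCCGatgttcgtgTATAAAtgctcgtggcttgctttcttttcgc
HIST1H4D: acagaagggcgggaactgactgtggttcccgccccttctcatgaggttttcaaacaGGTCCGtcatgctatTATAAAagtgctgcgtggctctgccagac
HIST1H4J: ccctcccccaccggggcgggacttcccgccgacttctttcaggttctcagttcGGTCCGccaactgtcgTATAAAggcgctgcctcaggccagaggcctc
They lie at chr6:27873535-27873634 (minus strand), chr6:26027284-26027383 (minus strand), chr6:26189113-26189212 (minus strand) and chr6:27823992-27824091 (plus strand). HIST1H4J held the same GGTCCG and TATAAA as the 3 others, at a ratio of -0.10 against 0.41 to 0.64.

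Motifs were searched on both strands in the 250 bases before the start of 57 histone genes and of 27305 genes in all, counting each motif on its own. GGTCCG was in 11 of 12 H4 promoters (91.7%) and in 9.33% of all promoters. The 12 leave out HIST1H4C, the gene with the highest ratio, and HIST1H4A, for which no promoter was available. The octamer ATTTGCAT, bound by the factor OCT1, was in 9 of 13 H2B promoters (69.2%), 11 of 15 H2A promoters (73.3%) and 0 of 12 H4 promoters, against 1.66% of all. Some H2A and H2B genes lie back to back with overlapping windows, such as HIST1H2AG and HIST1H2BJ, so the same octamer can count for both types. Within the 100 bases before the start, HIST1H2AM was the only H2A gene with the octamer. AAACACA, known as the H1 box, was in 6 of 6 H1 promoters (100%) against 4.95% of all. CCAAT was in 48 of 57 histone promoters (84.2%) against 33.0% of all, and TATAAA in 66.7% against 11.1%. The motifs followed the histone types. Among the searched H4 promoters, GGTCCG was in those of genes with high and with low ratios.

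Across all 59 measured genes the median log2 ratio was 0.13, beside -0.01 for the 17062 genes tested, and the hairpins gave medians of 0.10, 0.14 and 0.13. In bulk RNA, fewer or more cells in S phase and a different amount of histone mRNA per cell cannot be told apart. The sign of the family depended on where 0 was set. With median centring of each array in place of loess its median was -0.10 where that of all genes was -0.23. This left it 0.13 above all genes, and 12 of 59 genes were positive. Median centring over the tested genes, chosen after seeing the data, gave the family a median of 0.12, beside -0.0014 for all genes. There 48 of 59 genes were positive. On the loess scale, 41 of 59 genes were above 0 on all 3 arrays, where 21.3% of all genes were. Below 0 on all 3 were 4, where 29.0% were. The 4 were HIST1H1C, HIST1H2AE, HIST1H2BK and HIST1H4J. Called at a limma adjusted p under 0.05 with a mean beyond 0.5 were HIST1H4C and HIST1H4L on the higher side, where 0.334% of all genes were, and 0 histone genes on the lower side, where 0.393% were and where no histone gene had a mean below -0.5. The genes were chosen with this contrast known, so nothing is read from these shares. Without the array of shSPINK1-1, 4 genes were called higher (HIST1H4B, HIST1H4C, HIST1H4E and HIST1H4L). HIST1H4E at 0.497 lay just under the limit of 0.5.

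The brightest spots had higher ratios than the rest, so each gene was set beside genes of similar brightness, in 20 bins. In the brightest bin the median of all genes was 0.13, and HIST1H4C was 0.85 above it and HIST1H4L 0.51 above it. That bin is wide, from 12.1 to 15.6 in mean log2 brightness, with HIST1H4C at 14.6 and HIST1H4L at 12.8. Of the 57 genes called higher on the whole array, 38 lay among the 854 genes of this bin, HIST1H4C and HIST1H4L included. HIST1H4E was 0.55, HIST1H4B 0.49 and HIST1H4D 0.44 above the median of its bin. In all, 52 of 59 histone genes lay above the median of their bin, by a median of 0.15 over the 59. The kept histone probes had a median GC content of 53.3% beside 43.3% for all kept probes, and the part of base composition in these ratios was not tested.

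**Figure D3:**
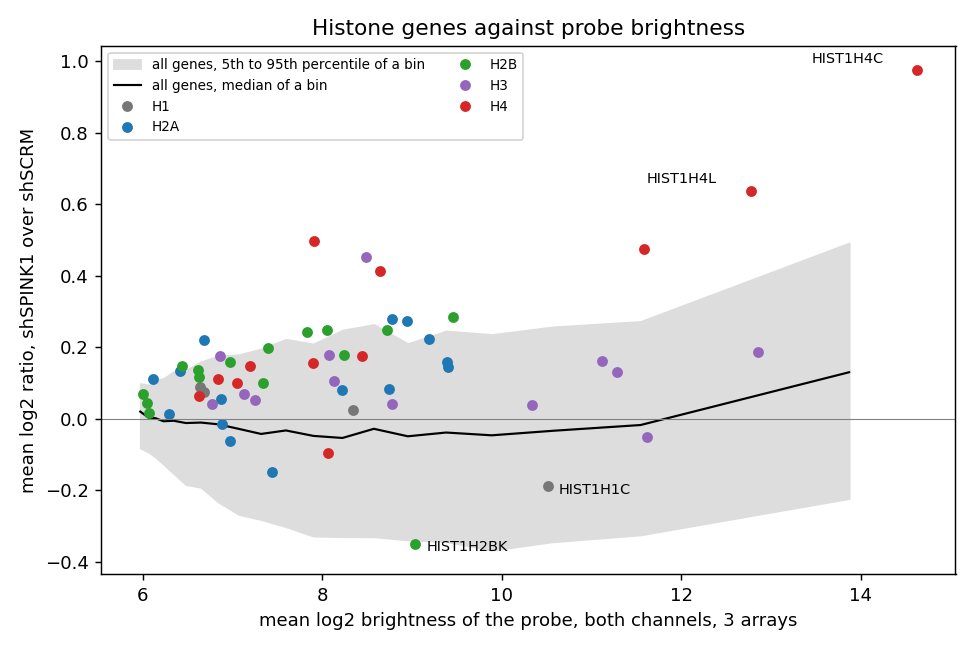
Mean log2 ratio of Cy5 over Cy3 (y axis) against the mean log2 brightness of the probe over both channels and 3 arrays (x axis); the line is the median and the band the 5th to 95th percentile of all genes in 20 brightness bins, and points are histone genes by type. HIST1H4C is the brightest histone probe and lies 0.85 above the median of its bin.

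By cluster, the 49 measured HIST1 genes had a median of 0.12, the 7 HIST2 genes 0.16 and the 3 HIST3 genes 0.02. All 7 measured HIST2 genes were above 0 on all 3 arrays, as were 33 of 49 HIST1 genes and 1 of 3 HIST3 genes. The hairpins ordered the types differently. Hairpin 1 gave the lowest value in 10 of 12 H4 genes and 11 of 13 H3 genes, and in 2 of 15 H2B genes. The H3 medians with hairpins 1, 2 and 3 were 0.0047, 0.15 and 0.16, and the H2B medians were 0.21, 0.14 and 0.13.

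Not measured were 10 genes: HIST1H1A, HIST1H1T, HIST1H2AA, HIST1H2APS1, HIST1H2BA, HIST1H2BF, HIST1H4G, HIST2H2BA, HIST2H2BF and HIST4H4. They had no kept probe, and no level or fold is given for them. Several of them, such as HIST1H1T and HIST1H2BA, are known for expression in testis, and HIST1H2APS1 and HIST2H2BA are the pseudogenes.

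Genes that transcribe and process histone mRNA were taken as a list, of which 24 of 26 were measured, with a median of -0.04. By limma 0 genes were called, adjusted or not, since none had a mean beyond 0.5, while at a limma adjusted p under 0.05 of any size 1 was higher and 3 lower, where 4.77% and 8.72% of all genes were. SLBP, the stem-loop binding protein, gave -0.14, -0.49 and -0.21 (mean -0.28 ± 0.18, SD, n = 3, limma adjusted p = 0.0494). HINFP, a factor that binds H4 promoters, had a mean of -0.27 (limma adjusted p = 0.0181) and CDK2, a kinase of NPAT, of -0.25 (limma adjusted p = 0.0386). NCBP1, a cap-binding protein and the highest of the list, had a mean of 0.22 (limma adjusted p = 0.0446). Under median centring NCBP1 was at -0.05, where the median of all genes was -0.23, and with median centring over the tested genes at 0.18. NPAT had a mean of -0.06 (limma adjusted p = 0.522) and CASP8AP2, which works with it, of 0.04 (limma adjusted p = 0.722). HINFP, CDK2 and NCBP1 were named after their values were seen.

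Replication-independent histones, mostly made from polyadenylated mRNAs and not confined to S phase, were measured for 11 of 12 genes, with a median of -0.0031. H3F3A, a gene for the variant H3.3, gave 0.30, 0.45 and 0.79 (mean 0.51 ± 0.25, SD, n = 3, limma adjusted p = 0.0153). It was the only one called, on the higher side, where 0.334% of all genes were. At a limma adjusted p under 0.05 of any size 3 of the 11 were higher and 2 lower, where 4.77% and 8.72% of all genes were. H2AFV (mean 0.48) and H2AFZ (mean 0.40), both for H2A.Z proteins, passed at limma adjusted p = 0.00723 and 0.00730. H2AFY2, for a macroH2A, was lowest at -0.43 (limma adjusted p = 0.00851), and CENPA, the centromeric H3, was at -0.22 (limma adjusted p = 0.0395). H3F3A, H2AFV and H2AFZ lay in the brightest bin, and in the deposited table H3F3A was at 0.07, H2AFV at 0.0033 and H2AFZ at 0.17. H2AFV, H2AFZ and CENPA were named after their values were seen.

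Histone chaperones, which carry histones to DNA, were measured for 15 of 16 genes, with a median of 0.01. NAP1L4, a carrier of H2A and H2B, gave -0.79, -0.52 and -0.59 (mean -0.63 ± 0.14, SD, n = 3, limma adjusted p = 0.00618). It was the only one called, on the lower side, where 0.393% of all genes were. At a limma adjusted p under 0.05 of any size 2 of the 15 were higher and 2 lower, where 4.77% and 8.72% of all genes were. TONSL, which reads newly made H4, was highest at 0.49 (limma adjusted p = 0.00746), and was at 0.16 with Feature Extraction's log ratios and 0.19 in the deposited table. Its probe lay in the brightest bin. S phase genes were measured for 24 of 24, with a median of -0.02. By limma 0 of the 24 were called, since none had a mean beyond 0.5, and at an adjusted p under 0.05 of any size 3 were higher and 0 lower, where 4.77% and 8.72% of all genes were. MCM3, a subunit of the replicative helicase, was highest at 0.36 (limma adjusted p = 0.0156) and MCM2, of the same complex, lowest at -0.29 (limma adjusted p = 0.0550). The others that passed were TYMS and UNG at 0.33 and 0.27, named after their values were seen. Under median centring TYMS was at -0.0037, UNG at -0.06 and MCM3 at 0.02, where the median of all genes was -0.23. With median centring over the tested genes they were at 0.22, 0.17 and 0.25.

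**Figure D4:**
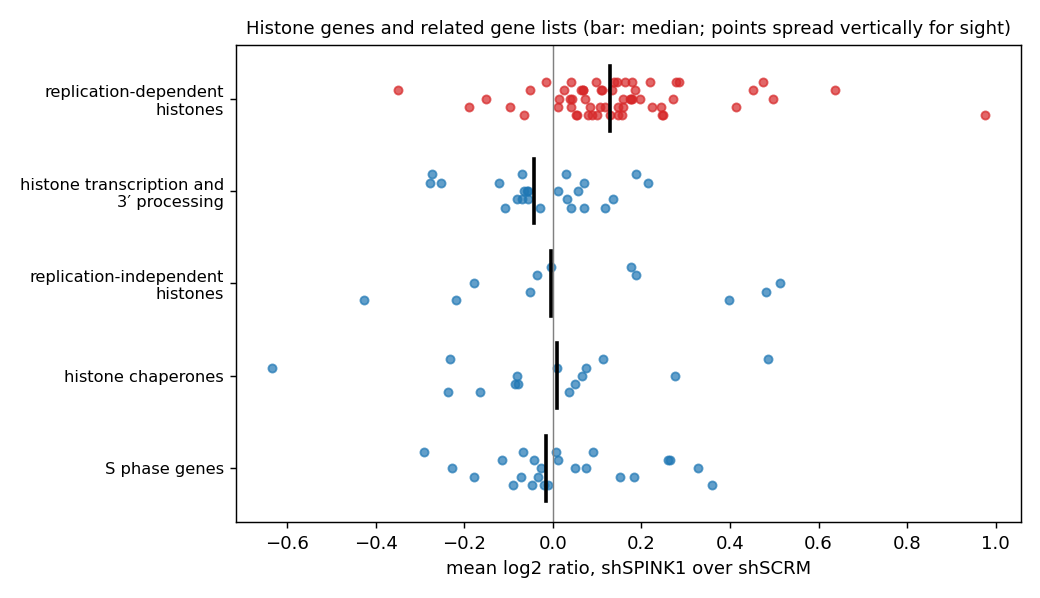
Mean log2 ratio of Cy5 over Cy3 (x axis) for the measured genes of each list, 1 point per gene, with the median as a bar. The histone genes have a median of 0.13 and the 4 other lists medians between -0.04 and 0.01, on the loess scale. Under median centring the medians are -0.10 for the histone genes and -0.35 to -0.16 for the lists, where that of all genes is -0.23.

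The knockdown itself was plain in every array, with SPINK1 at -3.71, -3.65 and -3.89 (mean -3.75, limma adjusted p = 6.10e-07). Between 38.8% and 46.8% of gene spots were well above background in a channel, and 0 were saturated. All 9 markers of luminal prostate cells were measured and 0 of 3 basal markers. Also measured were 2 of 4 fibroblast, 3 of 4 leukocyte and 2 of 3 endothelial markers, at a mean log2 brightness from 5.99 to 6.71 except for the fibroblast marker LUM at 8.57. The luminal list had a median of -0.23, with 3 of 9 genes lower and 1 higher at a limma adjusted p under 0.05 of any size, where 8.72% and 4.77% of all genes were.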

How the data were processed

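The authors deposited Feature Extraction output for 3 two-color Agilent arrays: spot and background intensity per channel without normalization, a log10 ratio of Cy5 over Cy3, and background, saturation and outlier flags. They also deposited a table of log2 values by gene name, with no stated centring. Its direction followed the arrays' ratios. In R 4.3.3 with limma 3.58.1, mean signals were corrected by normexp (offset 50) and loess within each array, with control and outlier spots at weight 0. Probes well above background in 1 channel on all 3 arrays were kept (21443 of 58201), and the brightest represented its gene. Means of 17062 genes were tested against 0 with limma and Benjamini-Hochberg adjustment. The same test was also run on simulated data, with spreads taken from the measured genes. Histone genes and lists were chosen with earlier results of these data known, and 1 gene of the S phase list is not reported here. Named by rule were HIST1H4C, called genes, each type's highest, lowest and brightest gene, genes with probes over 0.3 apart, SLBP, NPAT, CASP8AP2, SPINK1, and each list's called, highest and lowest genes. Genes beyond these were named after the values were seen. Probe coordinates are the array's (hg19). Of 69 histone names, 64 matched 1 gene in the RefSeq table of GRCh38.p14. The arrays come from 3 hairpins and p-values measure the spread between these. The number of arrays limits the precision. Alternatives covered background, scaling, source of values, filter, probe rule, a plain test per gene, and each array left out.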

Additional observations from a re-analysis of the deposited data

How the results depend on the processing

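The count of histone genes called higher, 2 as reported, was 4 with no background correction, 1 under median centring of each array, 0 with Feature Extraction's log ratios, 0 in the deposited table, 1 with the mean of a gene's probes, 0 with a plain test per gene (2 at an unadjusted p under 0.05 with a mean beyond 0.5), and 2 to 4 with 1 array left out. It was 4 after subtraction of the brightness-bin median, an alternative chosen after seeing the data, like median centring over the tested genes. On that unadjusted rule, 3 histone genes passed in the deposited table and with Feature Extraction's log ratios. Under median centring 2 histone genes (HIST1H1C and HIST1H2BK) and 2 processing genes (HINFP and SLBP) were called lower, against 0 of each as reported, where the median of all genes was -0.23. The histone median of 0.13 became 0.18 with no background correction, -0.10 under median centring, 0.25 with Feature Extraction's log ratios, 0.25 in the deposited table and 0.10 with no filter on dim probes. With median centring over the tested genes the histone median was 0.12. HIST1H4C at 0.98 became 0.68 under median centring, 0.68 with Feature Extraction's log ratios, 0.75 in the deposited table and 0.77 with the mean of its probes, and was 0.91 to 1.06 with 1 array left out. HIST1H2BK, at -0.35, was 0.05 in the deposited table and -0.05 with the mean of its probes. Of all genes, 57 higher and 67 lower became 2 and 1965 under median centring, 0 and 3 with Feature Extraction's log ratios, and 129 and 96 without the shSPINK1-1 array. The cause was not tested. A block for slide or scan was not run, since all arrays shared 1 of each. No paired analysis was possible because each hairpin has 1 array, on which knockdown and control are already compared.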
